A study of Mus musculus with 6 samples.

Results

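Kinesins and myosins are the motor proteins that walk along microtubules and actin filaments, and their genes were examined here for histone H3 lysine 27 acetylation (H3K27ac) in mouse embryonic stem cells (mESCs). The members were the protein-coding genes of the GENCODE GRCm38 annotation whose symbol is Kif, Myh or Myo followed by a number, with the letters that mark family members and with the kinesin-binding protein Kif1bp. The rule found 78 of 21853 protein-coding genes, 39 with Kif symbols and 39 with Myh or Myo symbols, on 18 chromosomes. They were divided by known role into 12 mitotic motors, 12 muscle motors and 54 other motors. Kif1bp is counted among the other motors, although it binds kinesins and is not a motor itself.

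The cells were E14Tg2A Rosa26-Cre Oct4-IRES-Puro mESCs, grown in N2B27 medium with leukemia inhibitory factor (LIF), the MEK inhibitor PD0325901 and the GSK3 inhibitor CT-99021, conditions shared by all samples. H3K27ac was measured by ChIP-seq, in which DNA bound to the marked histone is precipitated with an antibody and sequenced, with chromatin of the human cell line HEK293T added as a spike-in. The series holds 6 samples: 2 control samples given the solvent DMSO, 2 given 100 nM NVP-2, an inhibitor of the kinase CDK9, and 2 given actinomycin D (ActD), a DNA-binding inhibitor of transcription that the labels list at 800 nM, each for 120 min. All values below come from the authors' list of 22973 control peaks, made from both control samples together. The treated samples were not analysed here, so all statements concern the control cells of a single line.

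The list gives each peak's start and end in the mouse genome build GRCm38 (mm10) and no height, so a promoter was either marked or not. A promoter was called marked when at least 1 bp of a peak lay within 1 kb of the transcription start site (TSS) of the gene's longest isoform. Shares carry 95% Wilson intervals, which cover counting error only, and the pooled list allows no replicate error and no test between classes. An unmarked promoter is one without a listed peak, and whether it lacked the mark or fell under the authors' thresholds cannot be told apart. The label of the cells was checked first. Of 6 embryonic stem cell markers, 5 were marked at their main TSS by peaks of 19693 to 71785 bp, and Esrrb, unmarked there, was marked at another isoform. Of 10 muscle cell markers, including Myod1, Myog and Ttn, 0 were marked. At 3 counts of the total this allows a share of up to 30%. Of all protein-coding genes 48.8% were marked, a share inside the interval of the 6 stem cell markers (43.6% to 97.0%). All 10 muscle markers had promoters poor in CpG by the cut given below, and 22% of such coding promoters were marked. That share lies within the bound, so the muscle markers cannot be told apart from CpG-poor genes in general.

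H3K27ac is laid down by the acetyltransferases p300 and CBP and is found at active promoters and enhancers. Mitotic kinesins build the spindle, move chromosomes and complete cytokinesis, and many of their genes are known to be transcribed late in the cell cycle through the cell cycle genes homology region (CHR), often beside CCAAT boxes bound by NF-Y. Muscle myosin heavy chains form the thick filaments of heart, skeletal and smooth muscle, and are known as products of differentiated muscle, a tissue that does not exist in an mESC culture. The other motors carry vesicles and organelles, build cilia, shape the actin cortex or serve sensory cells.

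The promoters of both contrasting classes are shown first, as RefSeq GRCm38.p6 sequence from 250 bases before the TSS to 50 bases from it on, 5′ to 3′ in the direction of transcription. Motif positions are counted with no 0, so that the TSS is the first positive position and the base before it the first negative one. A match is placed by its first base on the strand shown. In the next 3 sequences, of mitotic motors with a marked promoter, capitals mark exact matches to the CHR (TTTGAA) and to the CCAAT box (CCAAT) on either strand, so that a match on the opposite strand reads TTCAAA or ATTGG. They are shown as examples in which every match to these 2 motifs lies within 70 bases of the TSS and a CCAAT box lies upstream of the CHR. The windows are chr19:37376153-37376452 on the plus strand for Kif11, chr11:102925075-102925374 on the minus strand for Kif18b and chr9:61946725-61947024 on the minus strand for Kif23.
Kif11: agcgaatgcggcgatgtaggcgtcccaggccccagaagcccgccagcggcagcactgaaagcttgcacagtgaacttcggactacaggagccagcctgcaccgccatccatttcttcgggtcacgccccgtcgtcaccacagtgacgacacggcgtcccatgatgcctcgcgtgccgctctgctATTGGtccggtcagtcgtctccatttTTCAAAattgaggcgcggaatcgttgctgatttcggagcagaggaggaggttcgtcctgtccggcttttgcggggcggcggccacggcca
Kif18b: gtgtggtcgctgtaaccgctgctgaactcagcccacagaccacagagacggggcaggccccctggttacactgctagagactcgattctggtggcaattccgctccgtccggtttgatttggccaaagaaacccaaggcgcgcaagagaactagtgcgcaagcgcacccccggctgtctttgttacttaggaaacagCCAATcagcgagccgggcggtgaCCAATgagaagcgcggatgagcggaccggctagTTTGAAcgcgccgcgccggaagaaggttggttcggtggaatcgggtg
Kif23: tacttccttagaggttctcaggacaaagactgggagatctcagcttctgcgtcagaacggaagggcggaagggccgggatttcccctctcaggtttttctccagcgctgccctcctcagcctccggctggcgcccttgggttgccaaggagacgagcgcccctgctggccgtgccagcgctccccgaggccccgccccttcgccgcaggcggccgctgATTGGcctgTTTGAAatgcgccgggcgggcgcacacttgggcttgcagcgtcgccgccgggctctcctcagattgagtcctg

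The next 2 sequences are those of muscle motors, with exact matches to the TATA box (TATAAA) and to an E-box of the type bound by muscle bHLH factors (CAGCTG) in capitals. Myh3, an unmarked muscle motor, is shown as an example with a TATA box close upstream of the TSS, at -29, a position that differed widely among the others. Myh7b is shown as the single marked muscle motor. Neither motif was found in its window, as was also the case in the unmarked Myh7 and Myh15. The windows are chr11:67078050-67078349 for Myh3 and chr2:155610962-155611261 for Myh7b, both on the plus strand.
Myh3: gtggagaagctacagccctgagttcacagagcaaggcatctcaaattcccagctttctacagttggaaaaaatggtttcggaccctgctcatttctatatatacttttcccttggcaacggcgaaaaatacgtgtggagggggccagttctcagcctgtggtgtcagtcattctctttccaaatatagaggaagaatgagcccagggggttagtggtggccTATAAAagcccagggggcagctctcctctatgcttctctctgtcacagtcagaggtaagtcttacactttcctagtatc
Myh7b: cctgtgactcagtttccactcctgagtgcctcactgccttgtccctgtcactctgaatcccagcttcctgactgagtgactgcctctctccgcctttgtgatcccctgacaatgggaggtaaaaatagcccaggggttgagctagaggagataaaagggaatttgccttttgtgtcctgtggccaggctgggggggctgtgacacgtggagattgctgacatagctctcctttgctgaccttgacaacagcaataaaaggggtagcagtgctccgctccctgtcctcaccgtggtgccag

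Nearly all mitotic motor promoters carried a peak and nearly all muscle motor promoters did not. Of the 12 mitotic motors 11 were marked, a share of 91.7% (95% interval 64.6% to 98.5%). Of the 12 muscle motors 1 was marked, a share of 8.33% (1.49% to 35.4%). These intervals did not overlap. Of the 54 other motors 29 were marked, 53.7% (40.6% to 66.3%). The background was 10674 of 21853 protein-coding genes, 48.8%, and the whole family of 78 motors lay close to it with 41 marked promoters, 52.6% (41.6% to 63.3%). The share of the other motors was likewise near the background, while the interval of the mitotic motors lay above it and that of the muscle motors below it. The latter did not hold with neighbouring genes counted once, when 1 of 6 muscle units was marked (16.7%, 3.01% to 56.4%). By symbol, 27 of 39 Kif genes were marked (69.2%, 53.6% to 81.4%) and 14 of 39 Myh and Myo genes (35.9%, 22.7% to 51.6%), a difference that includes the make-up of the classes, since all mitotic motors are kinesins and all muscle motors are myosins. Without the mitotic and muscle motors the shares were 59.3% of 27 kinesins (40.7% to 75.5%) and 48.1% of 27 myosins (30.7% to 66.0%), and these intervals overlapped.

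**Figure D1:**
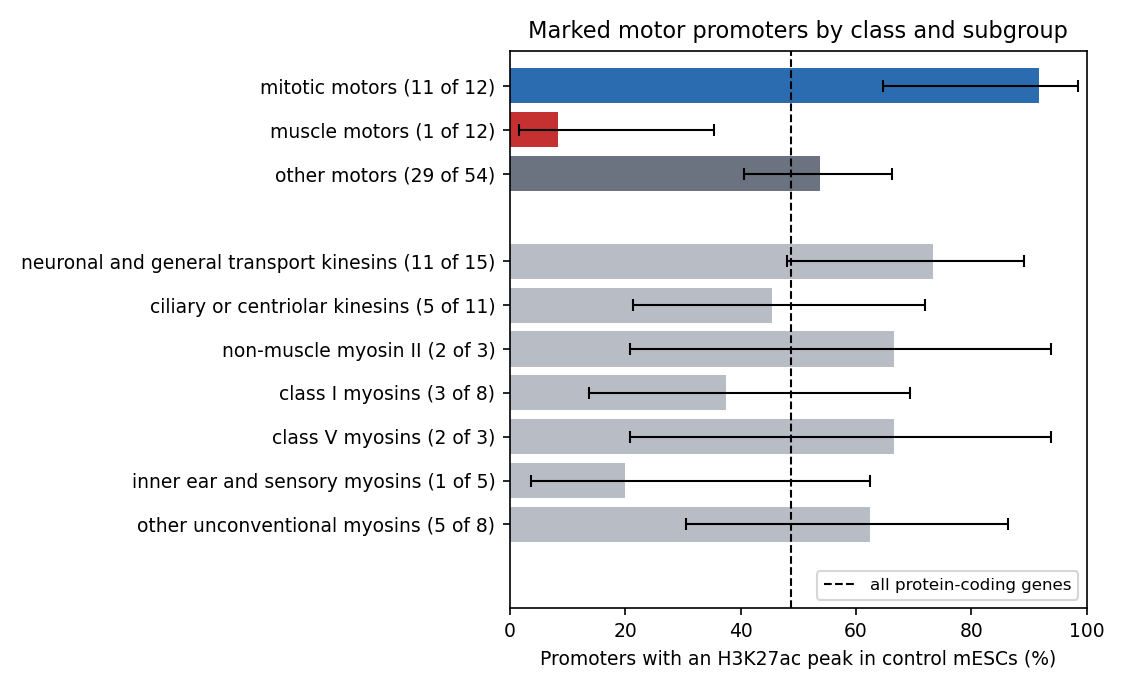
Share of promoters with an H3K27ac peak in control mESCs, in percent, for the 3 motor classes (upper bars) and for 7 subgroups of the other motors (lower bars), with 95% Wilson intervals. The dashed line is the share of all protein-coding genes, 48.8%; the mitotic bar stands above it at 91.7% and the muscle bar below it at 8.33%, and the intervals of the small subgroups are wide.

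Other definitions of a marked promoter left the same order of classes. The TSS itself lay inside a peak in 44.2% of protein-coding genes, against 10 of 12 mitotic motors, 1 of 12 muscle motors and 25 of 54 other motors. A peak within 1 kb of any coding isoform's TSS was found in 51% of protein-coding genes. With that rule the call of 0 of the 78 motors changed, although only 19 of them have a single annotated start and one has 13. Of the members without another protein-coding or lincRNA TSS within 2 kb, 8 of 9 mitotic, 1 of 12 muscle and 23 of 47 other motors were marked, against 43.4% of the coding genes that meet the same condition.

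The mitotic kinesins were marked by peaks of ordinary width. Kif11, the plus-end motor that pushes spindle poles apart, had a peak of 1917 bp that reached from 1118 bp before to 798 bp after its TSS. Kif23, the motor subunit of the central spindle complex centralspindlin, had one of 1334 bp. Its partners in the same complex and in the chromosomal passenger complex were marked as well, as described further on. Kif20a and Kif20b, both needed for cytokinesis, had peaks of 6796 and 1976 bp. Kif14, which acts at the midbody, had the narrowest peak of the class at 886 bp.

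The motors that act on chromosomes and microtubule ends fell in the same range. Kif22, which binds chromosome arms, had a peak of 2775 bp. Kif4, a chromokinesin that shapes chromosomes and the central spindle, had one of 4927 bp on the X chromosome. Kif18a, which dampens the movements of chromosomes at the spindle equator, had one of 4909 bp and its relative Kif18b one of 1991 bp. Kif15, which can take over part of the role of Kif11 in the spindle, had a peak of 3491 bp, and Kif2c, which takes microtubules apart at centromeres, one of 1749 bp. The median over the 11 marked mitotic promoters was 1991 bp (95% interval 1334 to 4927 bp) beside a median of 2174 bp over all marked coding promoters.

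Several of the wider mitotic peaks also covered the promoter of a neighbouring gene. The peak of Kif20a was shared with Brd8, that of Kif4 with Pdzd11, that of Kif18a with Mettl15 and that of Kif15 with 1110059G10Rik. These 4 of 11 peaks (36.4%) were the widest of the class, and 29.3% of all marked coding promoters shared their peak in this way. For such pairs the list does not show which gene the acetylation belongs to.

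Kif14 was the mitotic motor whose call depended most on the definition. Its peak (chr1:136466312-136467197) ended 738 bp before the TSS used here, at position 136467935, and contained the annotated 5′ end of the gene, at 136466343. Kif14 was unmarked with windows of ±500 bp, with the TSS required to lie inside the peak, with peaks of at least 1 kb only, and with an overlap of at least 500 bp. A second peak of 4480 bp lay inside the gene, its midpoint 3.87 kb downstream of the TSS.

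Kif2b was the single unmarked mitotic motor. It is a gene of 1 annotated start, a close relative of Kif2a and Kif2c that is known mainly from testis. Its nearest peak was 890 kb away, farther than for any other motor. With Kif2a, which was marked by a peak of 1889 bp, counted as mitotic in place of Kif2b, 100% of the 12 mitotic motors were marked.

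**Figure D2:**
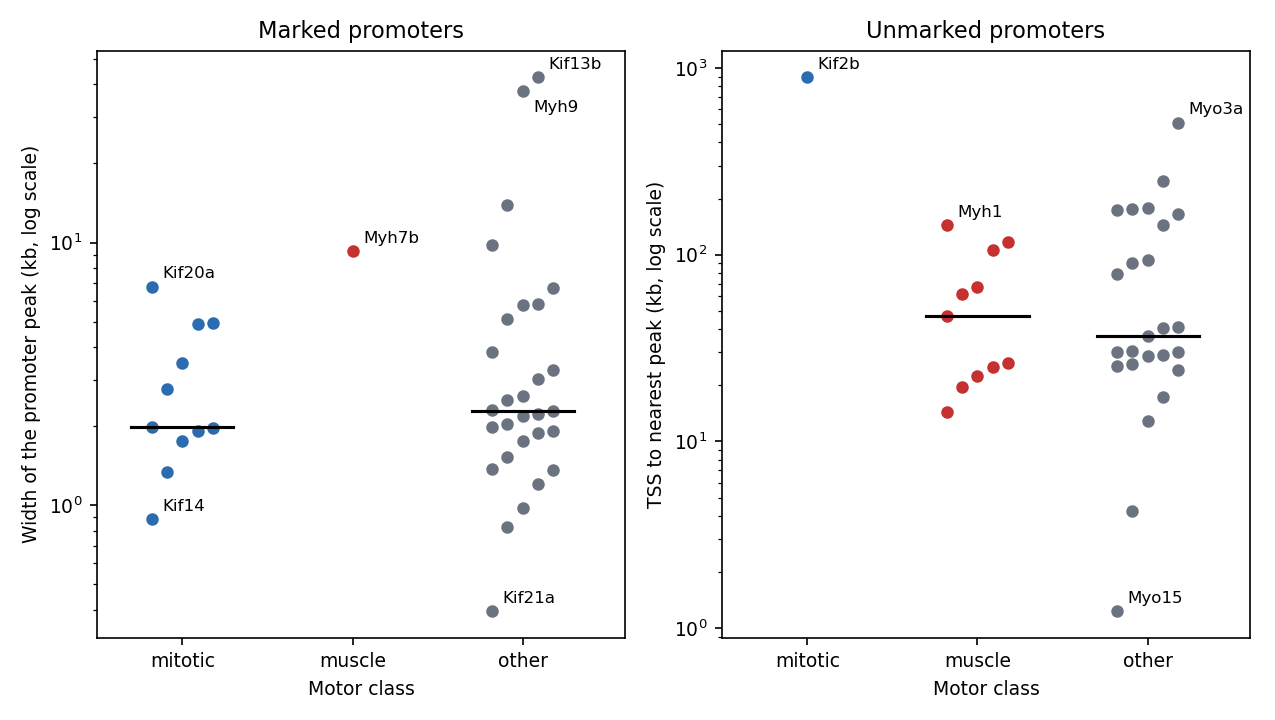
Left, width of the promoter peak in kb (log scale) at the 41 marked motors; right, distance in kb (log scale) from the TSS to the nearest peak at the 37 unmarked motors, 1 point per gene, with the class median as a bar where a class has more than 1 point. The mitotic and other medians of width are 1991 and 2278 bp, the single muscle point is Myh7b, and Kif2b lies 890 kb from a peak.

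Of the muscle motors, the sarcomeric genes of one cluster lay in a region with almost no peaks. Myh3, Myh2, Myh1, Myh4, Myh8 and Myh13, which encode the embryonic, adult fast, perinatal and extraocular heavy chains of skeletal muscle, follow each other over 293 kb (chr11:67078300-67371586). That span held 1 peak, of 2870 bp inside Myh13 (chr11:67344208-67347077), and none of the 6 promoters was marked. The distances from the TSS to the nearest peak ran from 22.6 kb at Myh13 and 25.0 kb at Myh3 through 67.1 kb at Myh8, 106 kb at Myh4 and 118 kb at Myh2 to 144 kb at Myh1. The genes of the cluster share sequence and position, so they are not independent of each other. With this cluster and the pair of Myh6 and Myh7 each counted once, 1 of 6 muscle units was marked, and the interval of that share contained the background.

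The heart and smooth muscle genes were unmarked too. Myh6 and Myh7, the alpha and beta heavy chains of heart muscle, lie side by side over 52.7 kb (chr14:54941921-54994626) with 0 peaks between their ends, and their TSSs were 26.2 and 19.6 kb from a peak. Myh11, the smooth muscle heavy chain, was 14.3 kb from a peak, the shortest distance of an unmarked muscle motor. Myh15, a slow-type heavy chain, and Myo18b, an unconventional myosin of the sarcomere, were 61.5 and 46.8 kb away. The median over the 11 unmarked muscle motors was 46.8 kb (95% interval 19.6 to 118 kb), against 60.3 kb for all unmarked coding genes and 36.7 kb (28.8 to 93.8 kb) for the 25 unmarked other motors. The muscle median was thus below that of unmarked genes in general, which lay inside its interval.

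Myh7b, an ancient sarcomeric heavy chain that hosts a microRNA, differed from the rest of its class. Its peak (chr2:155610520-155619817) was 9298 bp wide, wider than each of the 11 mitotic peaks, and began 692 bp before the TSS but ran 8605 bp into the gene. It covered the promoter of no other coding gene. Its promoter was poor in CpG, with an observed/expected ratio of 0.178.

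The muscle motors Myh7b, Myh6 and Myh7 each carry a microRNA gene on the same strand, and the mature sequences are shown because their seeds are nearly alike while only Myh7b was marked. Capitals mark the seed, bases 2 to 8. The sequences are RefSeq GRCm38.p6, at chr2:155622893-155622913 on the plus strand for miR-499-5p, and at chr14:54949072-54949093 and chr14:54975710-54975731 on the minus strand for miR-208a-3p and miR-208b-3p.
miR-499-5p in Myh7b: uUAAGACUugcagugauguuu
miR-208a-3p in Myh6: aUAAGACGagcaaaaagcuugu
miR-208b-3p in Myh7: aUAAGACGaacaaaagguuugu

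The seeds of miR-208a-3p and miR-208b-3p are the same, and that of miR-499-5p differs from each of them at 1 of 7 bases. The precursor gene Mir499 lay outside the promoter peak of its host, 3.06 kb from the nearest peak. Mir208a and Mir208b were 8.61 and 35.2 kb from one, measured from the nearer end of the gene. None of the 3 lay in a peak, whether or not its host was marked.

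The other motors held both the widest and the narrowest promoter peaks of the family. Kif13b, a transport kinesin that binds the scaffold protein DLG, had the widest, 42521 bp from 27862 bp before to 14658 bp after its TSS. Myh9, the heavy chain of non-muscle myosin IIA, which drives contraction of the cell cortex, had one of 37720 bp that reached 27927 bp into the gene. Kif5a, a kinesin heavy chain of neurons, had one of 13859 bp that extended 12032 bp upstream over the promoter of Dctn2. Myo1e, a membrane-linked class I myosin, and Myo10, the motor of filopodia tips, had peaks of 9805 and 6722 bp. These 5 were the widest of the 29 marked other motors, whose median was 2278 bp (95% interval 1889 to 3822 bp).

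At the narrow end were kinesins. Kif21a had a peak of 395 bp that began 104 bp after the TSS. Kif3c and Kif3b, partners of Kif3a in heterodimeric kinesin-2, had peaks of 824 and 1364 bp. Kif9, an axonemal kinesin, had one of 973 bp that was shared with Klhl18, and Kif7, a regulator of Hedgehog signalling in cilia, one of 1199 bp. When only peaks of at least 1 kb were used, Kif21a, Kif3c and Kif9 lost their call, as did Kif14.

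**Figure D3:**
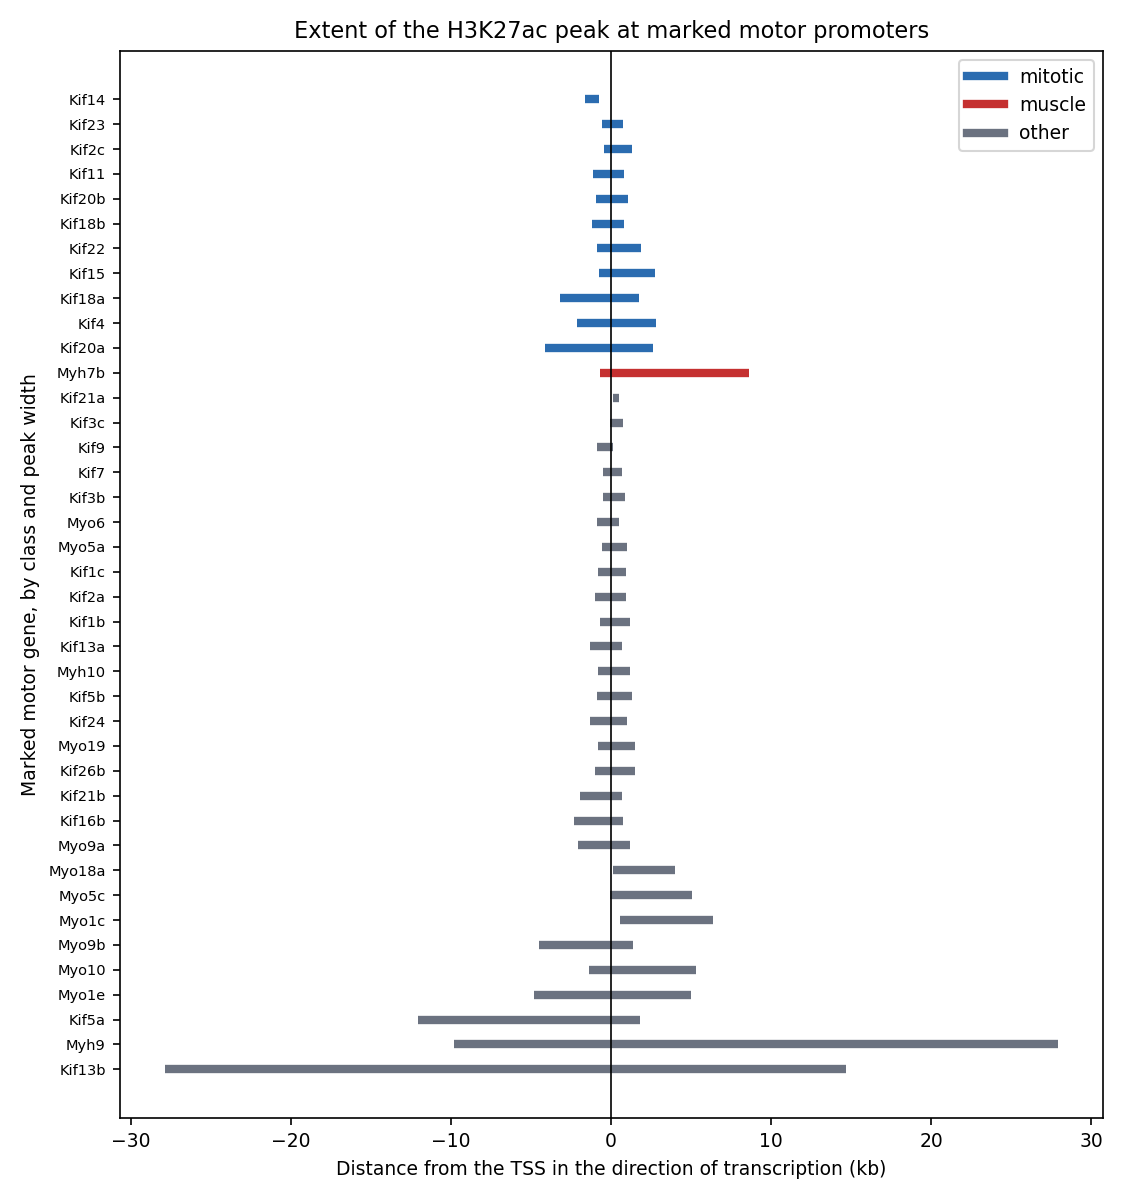
Extent of the promoter peak at the marked motors, in kb from the TSS (0) in the direction of transcription, with genes ordered by class and by width. Most bars lie within a few kb of the TSS, while Kif13b reaches 27862 bp upstream and Myh9 27927 bp downstream, and the bar of Kif14 ends before its TSS.

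The position of the TSS in the peak was described by the distance to each edge of the peak. Over the 10 mitotic motors with the TSS inside the peak, the median distance to the peak's edge was 1025.5 bp upstream and 1523.5 bp downstream. Over the 25 other motors it was 978 bp upstream and 1192 bp downstream, and over all such coding genes 904 and 1210 bp. At Myh7b, the single muscle motor, the edges were 692 bp upstream and 8605 bp downstream. In 5 marked motors the TSS itself lay outside the peak. Besides Kif14 and Kif21a these included Myo18a and Myo1c, whose peaks began 150 and 581 bp after the TSS.

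Among the other motors, the subgroups are small and their intervals wide. Of 15 neuronal and general transport kinesins 11 were marked (73.3%, 48.0% to 89.1%), an interval that reaches the background of 48.8%, among them the ubiquitous heavy chain Kif5b. Those unmarked were Kif1a and Kif5c, both known as motors of neurons, with Kif12 and Kif26a. Their distances to a peak were 93.8, 145, 248 and 179 kb. Of the 3 heavy chains of conventional kinesin, Kif5a and Kif5b were thus marked and Kif5c was not.

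Of 11 ciliary and centriolar kinesins 5 were marked (45.5%, 21.3% to 72.0%), near the background of 48.8%. The marked ones were Kif24, Kif3b, Kif3c, Kif7 and Kif9. The unmarked ones were Kif17, Kif19a, Kif27, Kif28, Kif3a and Kif6, at distances from 24.1 kb for Kif19a to 165 kb for Kif6. Kif1bp, the binding protein, was unmarked and 17.3 kb from a peak.

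Kinesin-2, the motor of transport into cilia, had marked and unmarked subunits. Kif3b and Kif3c were marked, Kif3a was not, with its nearest peak 41.1 kb away, and the accessory subunit gene Kifap3, which is outside the symbol rule, was 150 kb from a peak. The promoters of Kif3a and Kif3b are shown because both are rich in CpG, a feature most marked promoters had, yet only Kif3b was marked. Capitals mark each CG. The windows are chr11:53567129-53567428 for Kif3a and chr2:153291163-153291462 for Kif3b, both on the plus strand of GRCm38.
Kif3a: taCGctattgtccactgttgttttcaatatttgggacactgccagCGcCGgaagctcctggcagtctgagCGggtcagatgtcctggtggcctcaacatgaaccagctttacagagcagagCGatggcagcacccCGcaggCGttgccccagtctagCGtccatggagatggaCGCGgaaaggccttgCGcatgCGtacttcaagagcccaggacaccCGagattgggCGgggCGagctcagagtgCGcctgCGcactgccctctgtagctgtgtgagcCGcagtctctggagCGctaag
Kif3b: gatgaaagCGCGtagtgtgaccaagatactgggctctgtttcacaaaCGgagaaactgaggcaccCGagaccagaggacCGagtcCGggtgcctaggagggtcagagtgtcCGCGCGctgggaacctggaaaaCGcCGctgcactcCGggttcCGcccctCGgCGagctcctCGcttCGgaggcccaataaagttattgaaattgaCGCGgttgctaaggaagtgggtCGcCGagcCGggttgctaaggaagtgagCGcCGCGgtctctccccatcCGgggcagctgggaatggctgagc

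The window of Kif3a held 19 CpG and that of Kif3b 26. Of the promoters printed above, those of Kif11, Kif18b and Kif23 held 30, 26 and 25, and those of Myh3 and Myh7b 4 each.

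Of the non-muscle myosin II heavy chains, Myh9 and Myh10 were marked and Myh14 was not. The peak of Myh10 was 2029 bp wide, against 37720 bp at Myh9. Myh14, the heavy chain of non-muscle myosin IIC, was 29.2 kb from a peak, and that peak lay inside the gene.

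Of the 24 unconventional myosins among the other motors 11 were marked (45.8%), also near the background. In class I these included Myo1c and Myo1e, and the unmarked ones included Myo1a, Myo1f and Myo1g. Myo1a is known from the brush border of the gut, and Myo1f and Myo1g from blood cells. In class V, the carriers of vesicles and organelles along actin, Myo5a and Myo5c were marked, neighbours on one chromosome, and Myo5b was unmarked and 173 kb from a peak. Among myosins of the inner ear and other sensory cells Myo6 was marked, with a peak of 1370 bp, while Myo3a, Myo3b, Myo7a and Myo15 were not. The remaining marked ones were Myo9a and Myo9b, the mitochondrial Myo19, Myo10 and Myo18a, and the remaining unmarked ones Myo7b, Myo15b and Myo16.

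Unmarked motors differed widely in how far they were from a peak. The 5 farthest of the other motors were Myo3a at 511 kb, Kif12 at 248 kb, Kif26a at 179 kb, Myo16 at 175 kb and Myo5b at 173 kb. The nearest was Myo15, at 1.23 kb. Its peak, of 60 bp, lay just outside the window, and Myo15 was the single motor gained with windows of ±2 kb. Of the 37 unmarked motors, 11 lay more than 100 kb from a peak (29.7%), as did 38.3% of unmarked coding genes.

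Base composition differed between the classes, and marked promoters were mostly rich in CpG. The CpG observed/expected ratio of the promoter window had a median of 0.862 in mitotic, 0.232 in muscle and 0.724 in other motors, and of 0.554 in all coding genes. The ratio was at least 0.6 in 10 of 12 mitotic, 1 of 12 muscle and 38 of 54 other promoters. Among coding promoters at or above that ratio 79.7% were marked, and among those below it 22%. Of the motors at or above it 35 of 49 were marked (71.4%) and of those below it 6 of 29 (20.7%), both near the background.

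Within each stratum of CpG the classes hold few genes. Of CpG-rich promoters, 9 of 10 mitotic, 0 of 1 muscle and 26 of 38 other ones (68.4%) were marked, beside the 79.7% of all coding genes. Of CpG-poor promoters, 2 of 2 mitotic, 1 of 11 muscle and 3 of 16 other ones were marked, beside 22%. Apart from the strata with 1 or 2 genes, these counts were near the background of their stratum. CpG content thus moved with the classes, and its part in their difference was not tested. The 6 marked motors below 0.6 were Kif14 (0.440), Kif4 (0.0822), Myh7b (0.178), Kif5a, Kif9 and Myo1c. The muscle motor above it was Myh2, at 0.685, which was unmarked. Another 13 motors at or above 0.6 were unmarked, among them Myo5b at 1.02, Kif1bp and Kif2b. The strata rest on the ratio alone, and the windows of Myh2 and Kif2b held 9 and 14 CpG.

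**Figure D4:**
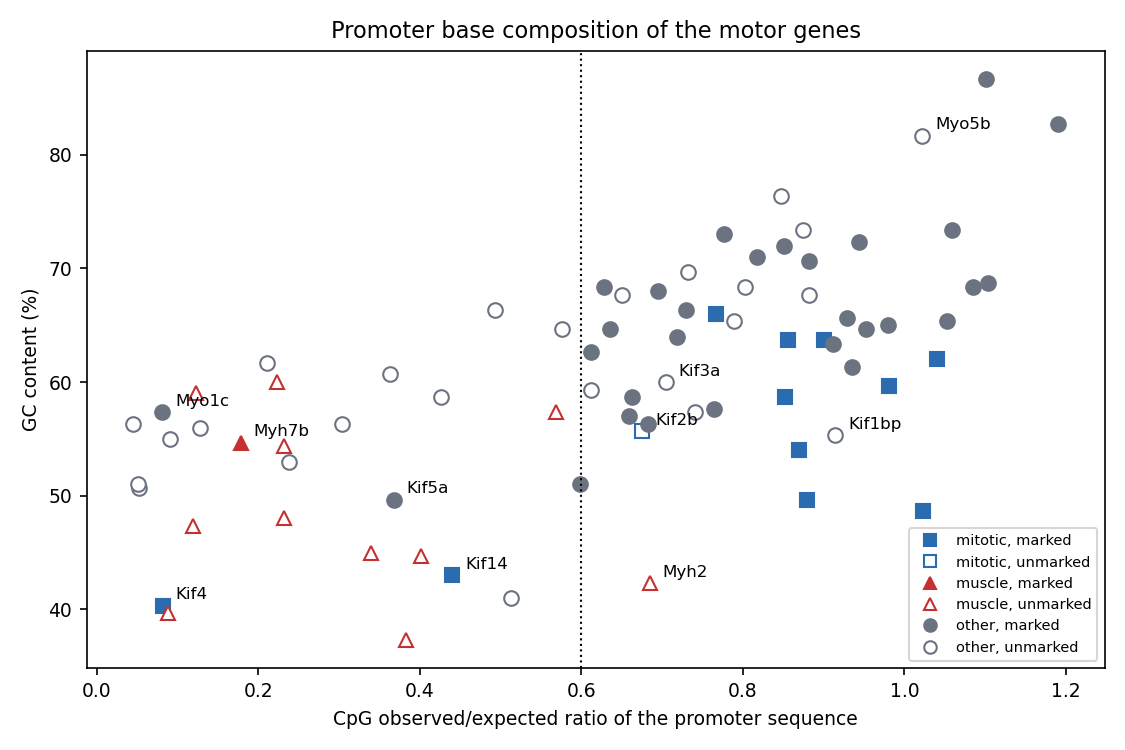
GC content in percent against the CpG observed/expected ratio of the promoter window for the 78 motors, 1 point per gene; filled symbols are marked and open symbols unmarked, squares are mitotic, triangles muscle and circles other motors, and the dotted line is the ratio of 0.6. Of the 49 genes at or right of the line 35 are marked, and of the 29 left of it 6.

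The motifs named for each class differed in how often their letters occurred. The CHR (TTTGAA) was found in 6 of 12 mitotic, 0 of 12 muscle and 3 of 54 other promoters, against 15.8% of all coding promoters. Its positions were -40 in Kif11, -23 in Kif23, 4 in Kif18b, 5 and 11 in Kif20b, -199 and 17 in Kif15, and -164 and 35 in Kif22. The CCAAT box was found in 7 of 12 mitotic, 3 of 12 muscle and 20 of 54 other promoters, against 38.7%. In Kif11 it stood at -66, in Kif18b at -53 and -30, and in Kif23 at -32, in each case upstream of the CHR. The capitals in the first group of sequences show these pairs. Kif2b, the unmarked mitotic motor, held a CCAAT box at -41 and no CHR.

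The TATA box (TATAAA) had the opposite distribution. It was found in 8 of 12 muscle promoters, 1 of 12 mitotic and 5 of 54 other promoters, against 12.4% of all coding promoters. At Myh3 it stood at -29, at Myh11 at -21 and at Myh13 at -46. In Myh4 and Myh8 the matches were farther upstream, at -248 and -96. In Myh2 and Myh6 they lay downstream of the TSS, at 11 and 36, and in Myh1 at -158 and 19. These positions refer to the TSS of the longest isoform. Other annotated starts lay 59 bases downstream of it in Myh1 and 67 in Myh6. Among coding genes the match was found in 6.43% of marked and 18.2% of unmarked promoters, and the CHR in 11.4% and 20.0%.

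The GC box (GGGCGG) was found in 40 of 54 other promoters (74.1%), 5 of 12 mitotic (41.7%) and 1 of 12 muscle promoters (8.33%), against 45.0% of all, and its letters contain a CpG. The E-box (CAGCTG, the same on both strands) was found in 2 of 12 muscle, 1 of 12 mitotic and 12 of 54 other promoters, against 15.6% of all. An E2F type site (GGCGGGAA) was found in 3 other promoters and no mitotic or muscle promoter, against 3.00% of all. The muscle and mitotic classes hold 12 promoters each, and a match shows only that the letters occur in the window.

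**Figure D5:**
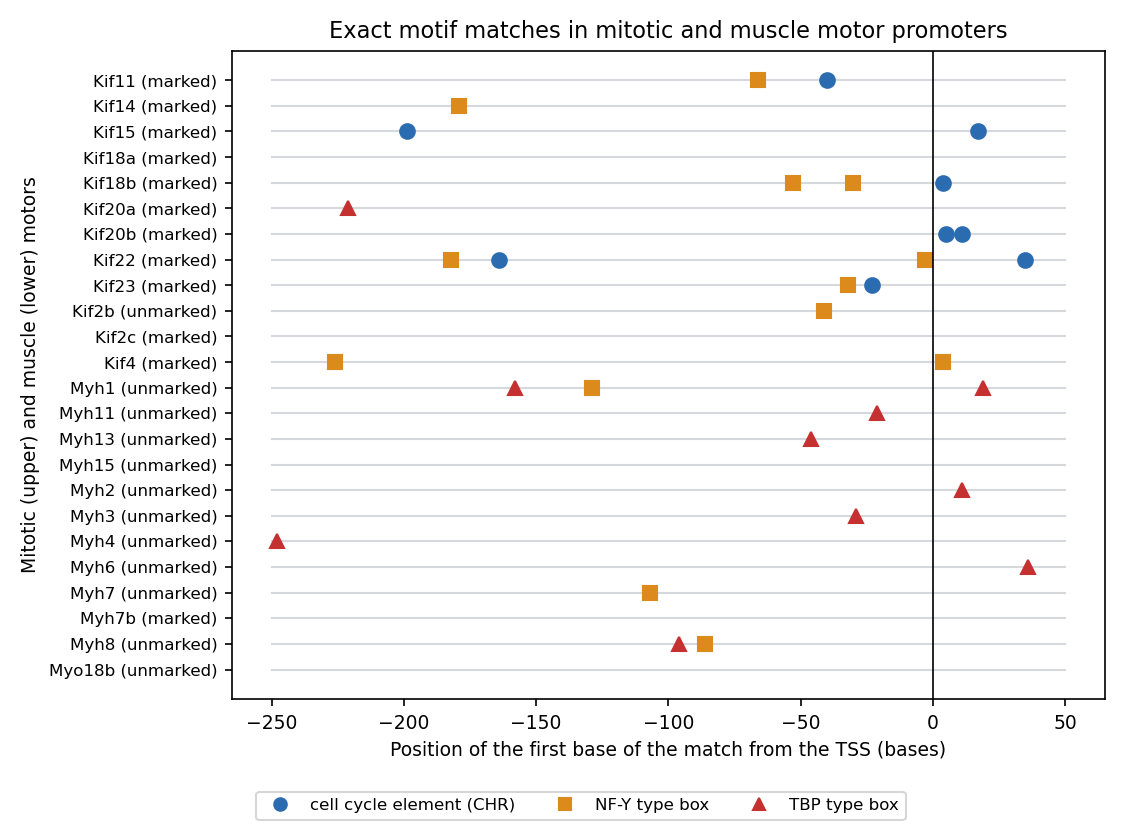
Positions of exact matches to the CHR, the CCAAT box (NF-Y type box) and the TATA box (TBP type box) in the promoter windows of the 12 mitotic motors (upper rows) and 12 muscle motors (lower rows), in bases from the TSS to the first base of the match. CHR matches lie in 6 mitotic rows and no muscle row, and TATA box matches in 8 muscle rows and 1 mitotic row.

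Peaks inside the genes, away from the promoter, were found in 31 of the 78 motors (39.7%, 29.6% to 50.8%), and motors are long genes. Of all coding genes 21.9% held a peak in the gene body outside the promoter window, against 5 of 12 mitotic (41.7%, 19.3% to 68.0%), 3 of 12 muscle (25%, 8.89% to 53.2%) and 23 of 54 other motors (42.6%, 30.3% to 55.8%). The median gene length was 38.2, 25.7 and 73.8 kb in these classes and 17.4 kb in all coding genes. Among genes of 50 to 100 kb, 40.4% of coding genes and 10 of 19 motors held such a peak, and among longer ones 54.1% and 11 of 24. Below 20 kb the share was 9.22% of coding genes and 1 of 8 motors, and from 20 to 50 kb 26.5% and 9 of 27. Set beside genes of like length, the motors were thus nearer to the background.

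Some of the unmarked motors had peaks only in the gene body. This was so in 11 of the 37 unmarked motors (29.7%), against 14.4% of unmarked coding genes, with length not taken into account. Myo3b, a motor of photoreceptors and hair cells, held 6 body peaks although its promoter was unmarked, the first of them 78.8 kb from its TSS. Kif6 held 3, and the muscle motors Myo18b, Myh11 and Myh13 held 2, 1 and 1. The body peak of Kif27 that spanned 3499 bp contained the microRNA gene Mir6369.

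Myo10 held the most body peaks, 8, in a gene that was also marked at its promoter. The widest of them spanned 47619 bp (chr15:25745200-25792818), wider than any peak at the main TSS of a motor. It contained several starts of shorter Myo10 isoforms, 130 to 151 kb downstream of the main TSS. Of the 8 body peaks 6 lay more than 1 kb from the TSS of every coding isoform. Myo1e held 5 body peaks, the widest of 25498 bp. Kif5a, Myo18a and Myo5c held 3 each. Among mitotic motors, body peaks lay in Kif11, Kif14, Kif18a, Kif22 and Kif2c. That of 17392 bp at Kif22 extended past the gene's end to the TSS of another gene, Gm42742.

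Genes of proteins that work with these motors were taken from lists by role. Of 9 partners of mitotic kinesins, all 9 were marked (100%, 70.1% to 100%), against 48.8% of all coding genes. They are the chromosomal passenger genes Aurkb, Incenp, Birc5 and Cdca8, the centralspindlin subunit Racgap1, the midzone bundler Prc1, the spindle assembly factor Tpx2, the cytokinesis factor Ect2 and the mitotic kinase Plk1, with peaks of 1483 bp at Aurkb to 16383 bp at Ect2. The CpG ratio was at least 0.6 in 8 of the 9 partner promoters, and 79.7% of all coding promoters at or above it were marked. Of 9 kinesins and kinesin subunits outside the symbol rule 6 were marked (66.7%, 35.4% to 87.9%), an interval that contains the background of 48.8%. Cenpe, the kinetochore kinesin, and Kifc1, a minus-end motor of the spindle, were marked by peaks of 1690 and 7164 bp.

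Light chains, which bind the neck of the myosin heavy chain, were taken from lists as well. Of 6 striated muscle light chains 3 were marked (50%, 18.8% to 81.2%), close to the 48.8% of all coding genes. These were Myl4, Myl7 and Mylpf, with peaks of 1834, 1318 and 25778 bp. Of these 3 peaks 2 also covered the promoter of another protein-coding or lincRNA gene. Myl1, Myl2 and Myl3 were unmarked and 32.0, 10.2 and 60.4 kb from a peak. Of 5 non-muscle and smooth muscle light chains 4 were marked, and Myl9 was not. Myl6 and Myl6b shared a peak of 10472 bp, and Myl12a and Myl12b one of 2759 bp, so these 4 genes rest on 2 peaks.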

How the data were processed

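H3K27ac ChIP-seq was made in 6 samples, and the authors' deposited list of control peaks, pooled over both control replicates, was used. To make it, the authors mapped Cutadapt-trimmed reads with bwa meme to a joint reference of mm10 and the spike-in's human genome, discarded duplicates (Picard 2.9.1) and reads of low mapping quality (samtools 1.4), and called peaks with LanceOtron. Peaks less than 2 kb apart were joined, and a filter on input-subtracted height and on distance to ATAC-seq summits followed. The list used gives peak positions, with no counts, heights or scores, so the depth behind a peak cannot be read from it. Reads that map to several paralogs were among those removed, and the effect on the clustered Myh genes was not tested.

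GENCODE release M21 (GRCm38) gave genes and TSSs, the latter from the isoform of longest genomic span, a release other than the one the authors name. Sequences were read from RefSeq GRCm38.p6. Python 3.11.15, numpy 2.4.6, scipy 1.17.1 and matplotlib 3.10.9 were used. Overlaps and distances were tested on simulated data, and all 21853 promoter calls were recovered with 3000 peaks placed. Medians carry order-statistic intervals. Distance is the gap from the TSS to the nearest peak edge. A body peak overlaps the gene outside ±1 kb of the TSS. Exact motif matches were sought on both strands from 250 bases before to 50 bases from the TSS on.

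The members, classes, lists and alternatives were chosen with earlier results of these data known. All mitotic, muscle and non-muscle myosin II genes were named, with the unmarked kinesins, the marked unconventional myosins, the 5 widest and 5 narrowest peaks, the 5 TSSs farthest from a peak and the members whose call changed under an alternative. The other genes named, including the members with body peaks, were chosen after their values were seen or complete the account of the members. No per-sample values and no treated samples were used. Values of some single genes that the naming rule covers are not reported here, while the counts include them.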

Additional observations from a re-analysis of the deposited data

How the results depend on the processing

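The marked shares of the classes were recomputed with other promoter windows, isoforms, peak widths, overlaps and class borders, and the medians of width and distance, the gene body shares and 3 motif shares (the CHR and the CCAAT box in mitotic and the TATA box in muscle motors) with fewer alternatives each. Of these 71 values 8 rest on the same genes and rule as the value reported and could not move, and of the other 63, 60 stayed within its interval. The intervals of the small classes are wide, so staying within them is a weak check. The values by CpG, the other motifs, the subgroups and the lists were not recomputed. With Kif2a counted as mitotic and Kif2b as other, 100% of mitotic promoters were marked. With sequence from 500 bases before to 100 after the TSS, 75% of mitotic promoters held a CHR and 83.3% a CCAAT box, and the shares of all coding promoters rose to 33.5% and 57.8%, since the window is longer. The marked share ranged over the alternatives from 83.3% to 100% in mitotic, 8.33% to 16.7% in muscle (the highest with neighbours counted once, 1 of 6, whose interval of 3.01% to 56.4% contains the 48.8% of all coding genes) and 46.3% to 55.6% in other motors. The calls lost under at least 1 alternative included those of Kif14, Kif21a, Kif3c, Kif9, Myo18a and Myo1c, and that of Myo15 was gained. No paired analysis was possible because the control samples are pooled in 1 list and no result comes from a test, and for the same reason no replicate could be left out. Peak height and depth are not in the list, so weakly and strongly marked promoters cannot be told apart.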

Other observations

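The heavy chains of dynein, the motor that walks along microtubules in the opposite direction to most kinesins, were taken from lists by role. Both cytoplasmic heavy chains, Dync1h1 and Dync2h1, were marked (100%, 95% Wilson interval 34.2% to 100%), by peaks of 12679 and 1752 bp. That interval contains the 48.8% of all coding genes. Of the 2 peaks 1 also covered the promoter of another protein-coding or lincRNA gene. Of 15 heavy chains of axonemal dynein, which drives the beating of cilia and sperm tails, 1 was marked (6.67%, 1.19% to 29.8%). That gene was Dnah8, with a peak of 19503 bp that also covered the promoter of another protein-coding or lincRNA gene. The other axonemal genes were 1.33 kb (Dnah2) to 361 kb (Dnah9) from a peak, and 7 of the 15 (46.7%) held a peak in the gene body. Their median length was 239 kb, and 54.1% of all coding genes over 100 kb held such a peak.

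Among kinesin subunits outside the symbol rule, the cargo-binding light chains Klc1, Klc2 and Klc4 were marked at the main TSS, by peaks of 1691, 1534 and 1899 bp. Klc3 was unmarked there, 4.28 kb from a peak, and was marked at another isoform. The same was true of Kifc3, at 15.4 kb.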
